A study of Mus musculus with 12 samples.

Results

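The 10 genes described here encode heat shock chaperones of the cytosol and the mitochondrion and the transcription factor that drives their induction: *Hspa1a*, *Hspa1b*, *Hspa8*, *Hspb1*, *Hsph1*, *Hsp90aa1*, *Dnajb1*, *Hspd1*, *Hspe1* and *Hsf1*. They were chosen by name, as known genes of the heat shock response, out of 38898 genes in the data, with earlier results of these data known. All 10 were among the 17602 genes with enough reads to be tested.

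RNA was sequenced from tumors that grew after Rd76-9 cells, a murine rhabdomyosarcoma line, were injected in the flank of adult wild-type C57/Bl6J mice. Each of the 12 tumors came from 1 mouse, was dissected on day 16 and was snap-frozen. Tumors m1, m2 and m3 received vehicle (empty nanoparticles and saline), tumors m4, m5 and m6 received vincristine (VCR, a drug that blocks microtubules) at 0.25 mg/kg, tumors m7, m8 and m9 received RCM1-NP FA with 8 µg of RCM1 per injection, and tumors m10, m11 and m12 received VCR + RCM1-NP FA. RCM1 is an inhibitor of the transcription factor FOXM1, carried here in nanoparticles that bear folic acid. The treatment label of the vehicle tumors also names RCM1, so their group was taken from their titles and the study's design. The libraries held between 29342195 (m2) and 32108055 (m9) estimated counts, which are the reads that kallisto assigned to transcripts. Levels are given as TPM, an abundance scaled for library size and transcript length, so that genes can be compared with each other.

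Heat shock proteins are chaperones that bind unfolded proteins, keep them from aggregating and help them fold. In unstressed cells HSF1 is held inactive, and when unfolded proteins build up it forms trimers, binds heat shock elements in promoters and switches on the inducible chaperones. Some family members are always abundant, others are nearly silent until stress, and several small heat shock proteins are abundant in striated muscle.

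The labelled tumor type was checked against genes of the myogenic lineage. *Cdh15*, a cadherin of myoblasts, lay between 78.1 and 116 TPM over the 12 tumors, and *Myf5*, a factor that sets the myogenic fate, between 38.8 and 59.9 TPM. The vehicle tumors had almost no RNA of other defining markers: *Myog* reached 0.077 TPM, *Myod1* 0.031 TPM and *Pax7* 0.024 TPM in the highest of them. In treated tumors *Myog* reached 2.44 TPM (m4), *Myod1* 2.19 TPM (m9) and *Pax7* 0.055 TPM (m4).

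The 4 most abundant of the 10 genes had the same order in every tumor, and the others did not. *Hspa8* had a mean of 3023 TPM over the 12 tumors, ranked 51 among all 38898 genes and made up 64.8% of the summed TPM of the 10 genes. *Hspd1* (519 TPM), *Hsp90aa1* (455 TPM) and *Hspe1* (399.6 TPM) came next, followed by *Hsf1* (85.7 TPM), *Hsph1* (59.4 TPM), *Dnajb1* (44.0 TPM), *Hspa1b* (37.4 TPM), *Hspb1* (32.4 TPM) and *Hspa1a* (8.86 TPM). Down to *Hsph1*, each gene was above the next in 12 of 12 tumors, although *Hsp90aa1* exceeded *Hspe1* by as little as 1.01-fold in 1 of them. Yet *Hspb1* was above *Hsf1* in m9, with 147 TPM, and *Hspa1b* was above *Hsph1* in m3 and m7. Below *Hsph1* the neighbours did not keep their order: *Hsph1* was above *Dnajb1* in 10 tumors, *Dnajb1* above *Hspa1b* in 10, *Hspa1b* above *Hspb1* in 7 and *Hspb1* above *Hspa1a* in 8. The summed level of the 10 genes ranged from 4034 TPM (m5) to 5358 TPM (m2).

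**Figure D1:**
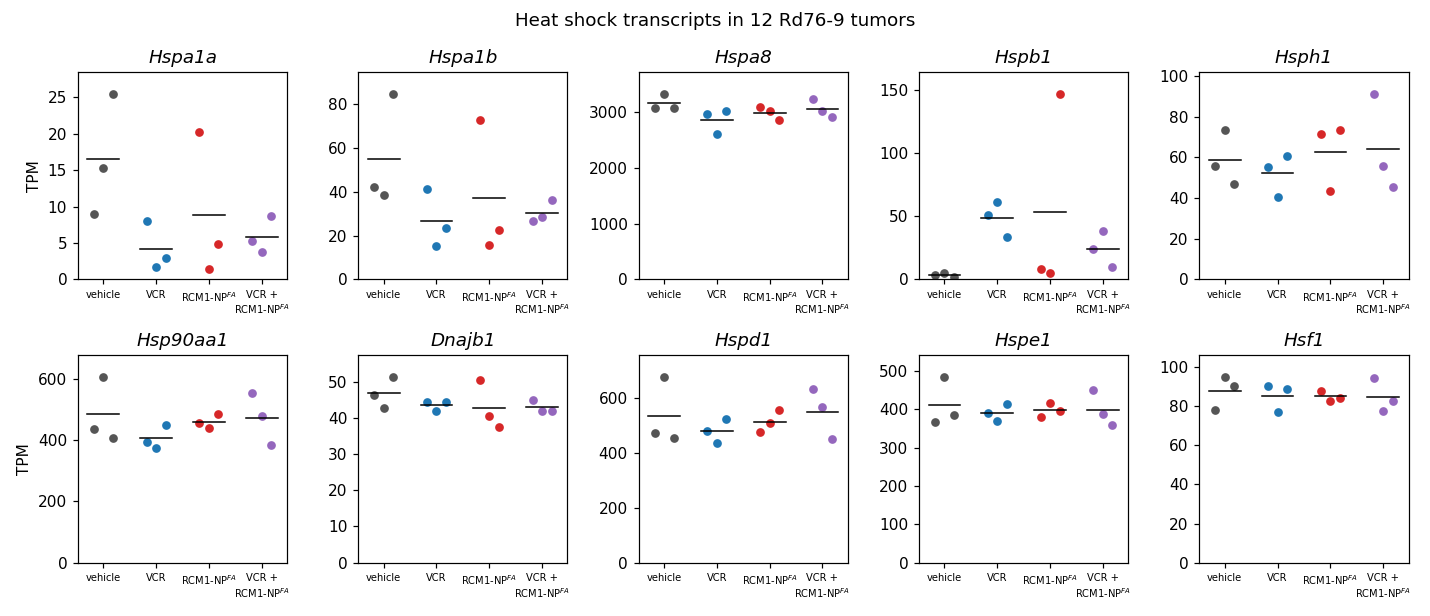
TPM of each of the 10 heat shock genes in each tumor, by group, with a line at the group mean of 3 tumors and every axis starting at 0. *Hspb1* was at most 4.79 TPM in the vehicle tumors and at least 33.7 TPM in the VCR tumors, while most other genes overlapped between all groups.

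Each treatment was set against vehicle, which asks what the drug changed in the tumor. VCR + RCM1-NP FA was also set against each single drug, and the interaction asks whether the drugs together differed from the sum of their separate effects. A gene was called when the adjusted p of edgeR's quasi-likelihood test was under 0.1, the threshold of the study. Against vehicle, VCR changed 977 of 17602 genes, 5.55% of those tested, of which 493 were higher and 484 lower. With only the groups compared 352 were higher and 113 lower, and without m3 these counts were 523 and 764. With m5 and m9 left out, chosen after seeing the data, they were 219 and 34. Among the 10 heat shock genes 1 was called, *Hspb1*, which was higher, beside the 5.55% of all genes. The number of genes called under VCR rested on single libraries: it was 281 without m1, 0 without m2, 0 without m4, 0 without m5, 2001 without m6, 525 without m10, 1 without m11 and 243 without m12. In the other 5 comparisons edgeR called 0 genes (0% of those tested) and 0 of the 10 heat shock genes. An unadjusted p under 0.05 was found in 1722 genes for RCM1-NP FA against vehicle, in 1286 for VCR + RCM1-NP FA against vehicle, in 926 for the combination against VCR, in 364 for the combination against RCM1-NP FA and in 2437 for the interaction. DESeq2 called 277, 61, 11, 0 and 461 genes in the same 5 comparisons. With 1 tumor left out edgeR called up to 8 genes under RCM1-NP FA (without m3), 44 under the combination (without m9) and 1 in the interaction (without m7). Among the 10 heat shock genes DESeq2 called *Hspb1* under RCM1-NP FA (adjusted p = 0.0314) and in the interaction (adjusted p = 0.0562), and 0 in the other 3.

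The 3 comparisons with vehicle share the same vehicle tumors. Of the 10 heat shock genes, 8 had a log2 fold change below 0 under VCR, 8 under RCM1-NP FA and 7 under the combination. Their median log2 fold change was -0.080 under VCR, -0.048 under RCM1-NP FA and -0.058 under the combination, where the median of all tested genes was 0.0016, 0.0028 and 0.0016. These p-values measure differences against the spread between tumors, with 3 tumors in each group.

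**Figure D2:**
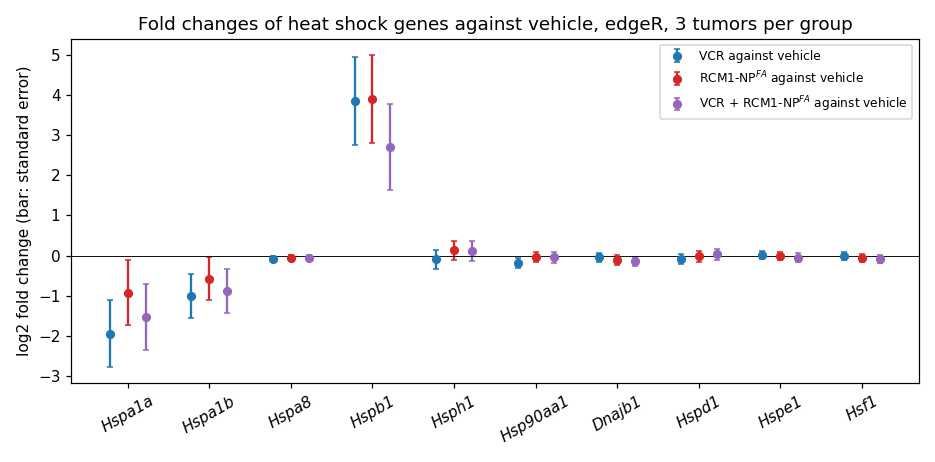
Log2 fold change of each heat shock gene against vehicle (points) with its standard error (bars), for each drug and for their combination, each from 3 tumors against 3. *Hspb1* lay highest, between 2.71 and 3.91, *Hspa1a* and *Hspa1b* lay below 0, and the other 7 genes lay within 0.2 of 0.

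*Hspa1a* and *Hspa1b* encode the stress-inducible HSP70, the chaperone whose RNA is the usual measure of a heat shock response. They lie next to each other on chromosome 17 of GRCm38 (RefSeq annotation), *Hspa1b* (gene ID 15511) from 34956429 to 34959238 and *Hspa1a* (gene ID 193740) from 34969359 to 34972156. *Hspa1b* was at 42.1, 38.5 and 84.7 TPM in vehicle tumors m1, m2 and m3, at 41.4, 15.4 and 23.7 TPM in VCR tumors m4, m5 and m6, at 73.0, 15.8 and 22.8 TPM in RCM1-NP FA tumors m7, m8 and m9, and at 26.9, 28.4 and 36.5 TPM in combination tumors m10, m11 and m12. Vehicle tumor m3 and RCM1-NP FA tumor m7 were the highest. The combination tumors all lay below the vehicle tumors in TPM but not in the counts scaled to library size alone (CPM) that were tested, VCR tumor m4 reached into the vehicle range, and RCM1-NP FA tumor m7 lay inside it. *Hspa1a* was at 8.96, 15.3 and 25.4 TPM in the vehicle tumors, at 7.98, 1.67 and 2.96 TPM under VCR, at 20.2, 1.39 and 4.83 TPM under RCM1-NP FA, and at 5.24, 3.71 and 8.66 TPM under the combination. The VCR tumors were all below the vehicle tumors, the combination tumors were so in TPM but not in CPM, m8 was the lowest tumor, and m7 again lay within the vehicle range. In CPM, combination and vehicle did not overlap for 12.6% of all tested genes, and VCR and vehicle for 24.4%.

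The group means of *Hspa1b* were 55.1 ± 25.7 TPM (SD, n = 3) with vehicle, 26.8 ± 13.3 TPM (SD, n = 3) under VCR, 37.2 ± 31.2 TPM (SD, n = 3) under RCM1-NP FA and 30.6 ± 5.15 TPM (SD, n = 3) under the combination. For *Hspa1a* they were 16.6 ± 8.30, 4.2 ± 3.34, 8.80 ± 9.997 and 5.87 ± 2.53 TPM (SD, n = 3 each). The log2 fold change of *Hspa1a* against vehicle was -1.95 under VCR (standard error, SE, 0.84, edgeR adjusted p = 0.201), -0.93 under RCM1-NP FA (SE 0.81, adjusted p = 0.756) and -1.53 under the combination (SE 0.82, adjusted p = 0.705). That of *Hspa1b* was -1.01 under VCR (SE 0.54, adjusted p = 0.294), -0.58 under RCM1-NP FA (SE 0.54, adjusted p = 0.774) and -0.89 under the combination (SE 0.54, adjusted p = 0.742). None of these 6 differences passed the threshold. In the two-sided exact permutation test of 3 against 3 tumors, whose smallest p is 0.1, *Hspa1a* gave p = 0.1 under VCR, 0.3 under RCM1-NP FA and 0.2 under the combination. The log2 fold change under VCR with 1 tumor left out ran from -2.82 (without m4) to -1.41 (without m3) for *Hspa1a* and from -1.48 to -0.48, without the same tumors, for *Hspa1b*. Without m7 the log2 fold change under RCM1-NP FA was -2.43 for *Hspa1a* and -1.52 for *Hspa1b*, without m8 these were -0.42 and -0.22, and without m3 they were -0.40 and -0.044. Without m9 that of *Hspa1b* was -0.32. Without m3 the log2 fold change under the combination was also nearer to 0, at -0.35 for *Hspa1b* and -0.99 for *Hspa1a*.

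The sequences of the pair are so alike that their reads are hard to divide. Of the 75-base windows of the *Hspa1b* transcript in GENCODE vM21, 55.8% were also found in that of *Hspa1a*, and the longest shared run was 638 bases. *Hspa1a* took between 8.07% (m8) and 28.4% (m2) of the pair's summed TPM. With the counts of both added before the fit, the log2 fold change was -1.18 under VCR (adjusted p = 0.257), -0.65 under RCM1-NP FA (adjusted p = 0.760) and -1.01 under the combination (adjusted p = 0.728).

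*Hspb1* encodes HSP27, a small heat shock protein that holds unfolded proteins and binds the cytoskeleton. It lies on chromosome 5, from 135887919 to 135889563 (gene ID 15507). Its level was 3.79, 4.79 and 2.32 TPM in vehicle tumors m1, m2 and m3 and 50.9, 60.9 and 33.7 TPM in VCR tumors m4, m5 and m6. It was 8.60, 4.95 and 147 TPM in RCM1-NP FA tumors m7, m8 and m9 and 24.2, 38.0 and 9.58 TPM in combination tumors m10, m11 and m12. Every treated tumor was above every vehicle tumor, but m8 was only just above m2, and m9 was the highest of all tumors. Groups that do not overlap were found for 24.4% of all tested genes between VCR and vehicle, 11.4% between RCM1-NP FA and vehicle and 12.6% between the combination and vehicle. The estimated counts behind these levels ran from 34 (m3) to 2162 (m9). The group means were 3.64 ± 1.24 TPM (SD, n = 3) with vehicle, 48.5 ± 13.8 TPM (SD, n = 3) under VCR, 53.4 ± 80.7 TPM (SD, n = 3) under RCM1-NP FA and 23.9 ± 14.2 TPM (SD, n = 3) under the combination.

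*Hspb1* rose 14.4-fold under VCR (log2 fold change 3.85, SE 1.10, edgeR adjusted p = 0.0964, higher in 3 of 3 tumors). After RCM1-NP FA the fold was 15.0 (log2 3.91, SE 1.10), and the adjusted p was 0.418. After the combination it was 6.54 (log2 2.71, SE 1.07), and the adjusted p was 0.679. The two-sided exact permutation test gave p = 0.1 in each of these 3 comparisons, which any gene without overlap reaches, 24.4%, 11.4% and 12.6% of those tested. The call under VCR was lost without m1 (adjusted p = 0.177), m2 (0.201), m3 (0.143), m4 (0.226), m5 (0.320), m10 (0.120), m11 (0.133) or m12 (0.117), while the log2 fold change stayed between 3.61 and 4.06 over all 12 fits with 1 tumor left out. It was also lost with offsets for transcript length (adjusted p = 0.102), with robust empirical Bayes (0.154), with limma-voom (0.139) and at a threshold of 0.05, with log2 fold changes from 3.82 to 3.85. Over all alternatives other than leaving out 1 tumor, the adjusted p under VCR ran from 0.00886 to 0.859. Without m9 the log2 fold change under RCM1-NP FA was 0.95 (adjusted p = 0.841), and that under the combination was 2.70 and was called (adjusted p = 0.0904). The interaction of the drugs had a log2 value of -5.05 for *Hspb1* (SE 1.45, edgeR adjusted p = 0.293), which was -2.09 without m9, within a range of -5.58 to -2.09 with 1 tumor left out, and -0.81 with a term for muscle fibre RNA in the fit. Over all alternatives other than leaving out 1 tumor its adjusted p ran from 0.0562 to 0.785.

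RNA of skeletal muscle fibres moved with *Hspb1*. The summed level of 15 fibre genes was 269, 133 and 101 TPM in the vehicle tumors, 4332, 12148 and 1993 TPM in the VCR tumors, 267, 311 and 21134 TPM in the RCM1-NP FA tumors, and 2539, 5241 and 591 TPM in the combination tumors. Tumor m9 was the highest and m5 the next, while m7 and m8 were close to the vehicle tumor m1. *Acta1*, skeletal muscle actin, was the most abundant of the 15 genes with a mean of 781 TPM, and *Ckmt2*, *Ttn*, *Mybpc1* and *Myh2* were under 1 TPM in all 3 vehicle tumors. Of the 15 genes, edgeR called 9 higher under VCR (15 at an unadjusted p under 0.05, 15 by DESeq2) and 0 under RCM1-NP FA or the combination, where 15 and 14 had an unadjusted p under 0.05 and DESeq2 called 12 and 4. Of all tested genes 5.55% were called under VCR and 0% under the others, and an unadjusted p under 0.05 was found for 22.1%, 9.78% and 7.31%, with 2279, 277 and 61 called by DESeq2. Without m2, m4 or m5, edgeR called 0 genes of any kind under VCR, the 15 included, and without m11 it called 1. In a bulk tumor, a change in the number of cells of a type cannot be told apart from a change in the RNA of each cell.

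Across the 12 tumors the log2 level of *Hspb1* followed the log2 summed level of the fibre genes with a Pearson r of 0.97 (permutation p = 2e-05, adjusted p = 5.67e-05 over 17 genes) and a Spearman rho of 0.951 (permutation p = 3e-05). Without m3 and m9, the tumors farthest from the median fibre level, r was 0.95, and with group means subtracted it was 0.94. With a term for fibre RNA in the fit, the log2 fold change of *Hspb1* was 0.28 under VCR (adjusted p = 0.859), 0.31 under RCM1-NP FA and -0.22 under the combination. With m5 and m9 left out together, it was 3.6 under VCR, which stayed called (adjusted p = 0.0160), 0.95 under RCM1-NP FA and 2.70 under the combination (adjusted p = 0.0434). *Hspa8* went the other way, with r = -0.76 (permutation p = 0.0046, adjusted p = 0.00977) and rho = -0.734 (permutation p = 0.00881), and r = -0.59 without m3 and m9. For *Hspa1b* r was -0.62 (permutation p = 0.0328, adjusted p = 0.0598) and rho -0.580 (permutation p = 0.0518), with r = -0.45 without m3 and m9 and -0.41 within groups. For *Hspa1a* r was -0.62 (permutation p = 0.0352, adjusted p = 0.0598) and rho -0.678 (permutation p = 0.0183), with r = -0.55 without m3 and m9 and -0.30 within groups. With the fibre term, the log2 fold change under VCR was -0.40 for *Hspa1a* and 0.052 for *Hspa1b*. The fibre genes were compared with the heat shock genes after their values had been seen.

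**Figure D3:**
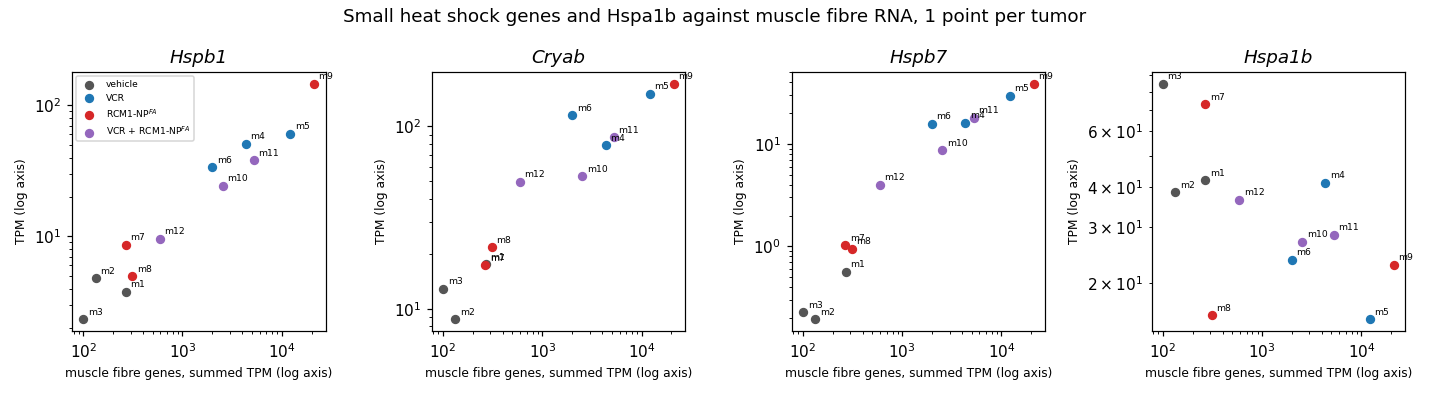
TPM of *Hspb1*, *Cryab*, *Hspb7* and *Hspa1b* against the summed TPM of 15 skeletal muscle fibre genes, each point 1 tumor and both axes logarithmic. *Hspb1*, *Cryab* and *Hspb7* climb with the fibre sum from 101 TPM (m3) to 21134 TPM (m9), and *Hspa1b* does not.

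Of 7 other small heat shock genes tested, *Cryab* and *Hspb7* were called higher under VCR, where 6 of the 7 had an unadjusted p under 0.05 and DESeq2 called 5. Of all 17602 tested genes 5.55% were called there, 22.1% had an unadjusted p under 0.05 and DESeq2 called 2279. The median log2 fold change of the 7 was 2.85 under VCR, 2.37 under RCM1-NP FA and 2.15 under the combination. *Cryab*, the lens and muscle chaperone αB-crystallin, was at 17.6, 8.74 and 12.9 TPM with vehicle, 78.6, 151 and 115 TPM under VCR, 17.3, 21.7 and 171 TPM under RCM1-NP FA, and 53.4, 86.9 and 49.8 TPM under the combination. The VCR and combination tumors were all above the vehicle tumors, and m7 lay within the vehicle range; 24.4% and 12.6% of all tested genes had no overlap in these 2 comparisons. *Cryab* rose under VCR with a log2 fold change of 3.15 (SE 0.74, edgeR adjusted p = 0.0759). *Hspb7*, a chaperone of heart and skeletal muscle, was at 0.563, 0.194 and 0.228 TPM with vehicle, 16.0, 29.3 and 15.8 TPM under VCR, 1.02, 0.953 and 38.7 TPM under RCM1-NP FA, and 8.63, 18.0 and 3.97 TPM under the combination. All 9 treated tumors were above the vehicle tumors, with m9 again highest, where 24.4%, 11.4% and 12.6% of all tested genes did not overlap. *Hspb7* rose under VCR with a log2 fold change of 6.03 (SE 1.44, edgeR adjusted p = 0.0763). *Hspb6*, the most abundant of the list with a mean of 67.9 TPM, had a log2 fold change of 2.05 under VCR (SE 0.73, adjusted p = 0.145). Against the fibre sum, r was 0.96 for *Cryab* (permutation p = 1e-05, the smallest that these permutations can give; rho 0.930, permutation p = 7e-05; 0.95 without m3 and m9), 0.98 for *Hspb7*, 0.91 for *Hspb6* and 0.61 for *Hspb9* (permutation p = 0.0392, adjusted p = 0.0606; rho 0.601, permutation p = 0.0435), the lowest of the 7. *Hspb9*, singled out after its values were seen, had a log2 fold change of 0.35 under VCR (SE 0.30, adjusted p = 0.558) and -0.072 under RCM1-NP FA, where the other 6 were above 0. These 2 calls were also lost without single tumors, while with 1 tumor left out the log2 fold change stayed between 2.85 and 3.36 for *Cryab* and between 5.63 and 6.61 for *Hspb7*. For *Cryab* the adjusted p was 0.126 without m1, 0.183 without m2, 0.213 without m4, 0.2999 without m5, 0.117 without m11 and 0.104 without m12, and for *Hspb7* it was 0.134 without m1, 0.183 without m2, 0.102 without m3, 0.213 without m4, 0.289 without m5, 0.117 without m11 and 0.102 without m12. With the fibre term the log2 fold change under VCR was 0.87 for *Cryab* (adjusted p = 0.579) and 1.92 for *Hspb7* (adjusted p = 0.435), within ranges of adjusted p over the other alternatives from 0.00368 to 0.579 and from 0.000229 to 0.435. Under RCM1-NP FA edgeR called 0 of the 7, where 6 had an unadjusted p under 0.05 (9.78% of all tested genes) and DESeq2 called 3. Under the combination edgeR called 0, where these counts were 3 (7.31% of all tested genes) and 1. DESeq2 called 277 and 61 of all 17602 tested genes in these 2 comparisons. *Cryaa* had at most 1 estimated count in any tumor and was not tested.

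*Hspa8* encodes HSC70, the HSP70 that folds new proteins in unstressed cells, and lies on chromosome 9 from 40801276 to 40805202 (gene ID 15481). It was at 3078, 3327 and 3086 TPM in the vehicle tumors, 2975, 2617 and 3020.0 TPM under VCR, 3089, 3022 and 2871 TPM under RCM1-NP FA, and 3234, 3033 and 2919 TPM under the combination. The lowest tumor was m5 and the highest m2, a 1.27-fold range, and on this scale the VCR tumors lay below the vehicle tumors while the other groups overlapped with vehicle. In CPM, VCR and vehicle overlapped for *Hspa8*, and on that scale they did not overlap for 24.4% of all tested genes. Its log2 fold change was -0.075 under VCR (SE 0.067, edgeR adjusted p = 0.549), -0.054 under RCM1-NP FA (adjusted p = 0.847) and -0.062 under the combination (adjusted p = 0.847). With 1 tumor left out these ran from -0.12 to -0.040, from -0.10 to -0.011 and from -0.11 to -0.027.

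*Hsp90aa1*, the inducible form of cytosolic HSP90, lies on chromosome 12 from 110691036 to 110696395 (gene ID 15519). It ranged from 375 TPM (m5) to 604 TPM (m2), and in TPM all groups overlapped. In CPM each treated group overlapped with vehicle, but VCR (688 in m5 to 746 in m6) lay below RCM1-NP FA (763 in m8 to 811 in m9). The share of all genes without overlap was not computed for that pair of groups. Its group means were 483 ± 106 TPM with vehicle, 406 ± 38.5 TPM under VCR, 459.7 ± 23.8 TPM under RCM1-NP FA and 472 ± 83.8 TPM under the combination (SD, n = 3 each). The log2 fold change was -0.18 under VCR (SE 0.13, adjusted p = 0.426; -0.27 to -0.037 with 1 tumor left out, the latter without m2), -0.042 under RCM1-NP FA (adjusted p = 0.951) and -0.047 under the combination (adjusted p = 0.951).

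*Hsph1* encodes HSP110, which helps HSP70 exchange its nucleotide and pull aggregates apart, and lies on chromosome 5 from 149616843 to 149636498 (gene ID 15505). It was at 55.8, 73.3 and 46.8 TPM in the vehicle tumors, 55.5, 40.6 and 60.7 TPM under VCR, 71.7, 43.4 and 73.3 TPM under RCM1-NP FA, and 91.0, 55.6 and 45.2 TPM under the combination. Tumor m10 was the highest and m5 the lowest, and all groups overlapped. The log2 fold change was -0.099 under VCR (SE 0.25, adjusted p = 0.849), 0.13 under RCM1-NP FA (SE 0.25, adjusted p = 0.914; 0.014 to 0.32 with 1 tumor left out) and 0.10 under the combination (SE 0.25, adjusted p = 0.942). Of its 4 quantified transcripts, 1 took between 80.3% and 92.6% of the counts.

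*Dnajb1* encodes HSP40, the J-domain protein that hands substrates to HSP70, and lies on chromosome 8 from 83608175 to 83612653 (gene ID 81489). It ranged from 37.4 TPM (m9) to 51.2 TPM (m3), with all groups overlapping vehicle. Its group means were 46.8 ± 4.18 TPM with vehicle, 43.6 ± 1.52 TPM under VCR, 42.8 ± 6.85 TPM under RCM1-NP FA and 42.9 ± 1.78 TPM under the combination (SD, n = 3 each). The log2 fold change was -0.045 under VCR (SE 0.12, adjusted p = 0.859), -0.11 under RCM1-NP FA (SE 0.12, adjusted p = 0.806) and -0.14 under the combination (SE 0.12, adjusted p = 0.791; -0.24 to -0.016 with 1 tumor left out).

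*Hspd1* and *Hspe1* encode HSP60 and HSP10, the barrel and the lid of the mitochondrial chaperonin. They lie head to head on chromosome 1, *Hspd1* (gene ID 15510) from 55077833 to 55088243 and *Hspe1* (gene ID 15528) from 55088148 to 55091317, so that their annotated ends overlap. The kit is named as stranded while the reads are described as non-stranded, and how reads of the overlap were divided was not tested. *Hspd1* was at 471, 674 and 454 TPM in the vehicle tumors, 477, 436 and 524 TPM under VCR, 474, 509.7 and 555 TPM under RCM1-NP FA, and 634, 565 and 449 TPM under the combination. *Hspe1* was at 367, 483 and 384 TPM in the vehicle tumors, 389.8, 368 and 413 TPM under VCR, 380.1, 417 and 395 TPM under RCM1-NP FA, and 449.6, 389 and 359.9 TPM under the combination. Tumor m2 was the highest for both genes, m10 the next, and all groups overlapped. Their TPM stood in a ratio of 1.18 (m3) to 1.45 (m11). For *Hspd1* the log2 fold change was -0.085 under VCR (SE 0.13, adjusted p = 0.752), -0.025 under RCM1-NP FA (adjusted p = 0.975) and 0.029 under the combination (adjusted p = 0.974). For *Hspe1* it was 0.0083 under VCR (SE 0.10, adjusted p = 0.974), -0.011 under RCM1-NP FA (adjusted p = 0.985) and -0.053 under the combination (adjusted p = 0.924). The sign for *Hspe1* under VCR turned with DESeq2's size factors (-0.0070) and with offsets for transcript length (-0.017).

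*Hsf1*, the transcription factor that activates the other genes under stress, lies on chromosome 15 from 76477362 to 76501155 (gene ID 15499). It was at 78.3, 94.8 and 90.1 TPM in the vehicle tumors, 90.3, 76.9 and 88.7 TPM under VCR, 87.9, 82.8 and 84.3 TPM under RCM1-NP FA, and 94.5, 77.7 and 82.7 TPM under the combination. The tumors spanned a 1.23-fold range, the smallest of the 10 genes, and all groups overlapped. Its log2 fold change was -0.023 under VCR (SE 0.10, adjusted p = 0.919), -0.054 under RCM1-NP FA (adjusted p = 0.909) and -0.093 under the combination (adjusted p = 0.848; -0.19 to -0.015 with 1 tumor left out). The sign under VCR turned with offsets for transcript length (0.013). HSF1 is controlled mainly at the protein level, which RNA does not measure. kallisto divided its reads over 11 transcripts, of which the leading 1 took a median of 45.3% of the counts (39.6% to 52.0% over the tumors).

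Set against the single drugs, the combination gave no call among the 10 genes. Against VCR, *Hspb1* had a log2 fold change of -1.14 (SE 0.96, edgeR adjusted p = 0.866; -1.64 to -0.77 with 1 tumor left out), *Hspa1a* of 0.42 (SE 0.82, adjusted p = 0.927) and *Hspa1b* of 0.12 (SE 0.54, adjusted p = 0.970). In CPM, the 3 combination tumors were all below the VCR tumors for *Dnajb1* (log2 fold change -0.10, SE 0.12, adjusted p = 0.878; two-sided exact permutation p = 0.1), where 12.9% of all tested genes did not overlap. Against RCM1-NP FA, *Hspb1* had a log2 fold change of -1.20 (SE 0.96, adjusted p = 1.00), which was 1.75 without m9. In that comparison *Hspa1a* had -0.60 (SE 0.81) and *Hspa1b* -0.31 (SE 0.54), each with an adjusted p of 1.00. Both signs turned without m7, to 0.90 and 0.63, within ranges of -1.10 to 0.90 and -0.67 to 0.63 with 1 tumor left out, and limma-voom gave 0.083 for *Hspa1a*. In the interaction, *Hspa1a* had a log2 value of 1.35 (SE 1.15, adjusted p = 0.623) and *Hspa1b* of 0.70 (SE 0.76, adjusted p = 0.712), and the 7 genes other than these and *Hspb1* lay between -0.051 and 0.18. With 1 tumor left out the interaction ran from 0.82 (without m3) to 2.85 (without m7) for *Hspa1a* and from 0.17 to 1.64, without the same tumors, for *Hspa1b*.

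The 10 genes differed in how far tumors of the same group lay apart. The standard deviation of log2 CPM around the group means was 1.41 for *Hspb1*, 1.21 for *Hspa1a*, 0.77 for *Hspa1b* and 0.35 for *Hsph1*. Among tested genes within 2-fold of their own mean level, these spreads stood at percentile 98.6, 98.2, 99.2 and 97.9. For *Hspd1*, *Hsp90aa1*, *Dnajb1*, *Hspe1* and *Hsf1* the spread lay between 0.13 and 0.18, at percentiles from 60.3 to 82.5. *Hspa8* had the least, 0.064, at percentile 3.85 among 26 genes of like level.

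Over the 12 tumors, 7 of the 45 pairs among the 10 genes had a correlation with an adjusted p under 0.1, and 6 of these were positive. No such count was made for pairs of other genes, so whether these genes vary together more than others was not tested. Benjamini-Hochberg adjustment was over the 45 pairs. By Spearman's rho 4 pairs passed, and with TPM in place of CPM 14 passed. *Hspa1a* and *Hspa1b* had r = 0.95 (permutation p = 3e-05, adjusted p = 0.000675) and rho = 0.895 (permutation p = 0.00016), with r = 0.92 without m3 and m8, the farthest from the median of *Hspa1a*, and 0.94 within groups. The levels of this pair are not independent measures, because reads of their shared sequence were divided between them by kallisto. How far that division shaped r was not tested. *Hsp90aa1* and *Hspd1* had r = 0.93 (permutation p = 3e-05, adjusted p = 0.000675) and rho = 0.818 (permutation p = 0.0021), with r = 0.78 without m2 and m10 and 0.96 within groups. The cytosolic HSP90 and the mitochondrial HSP60 were thus high in the same tumors, m2 and m10 first. *Hspa8* and *Hsf1* had r = 0.78 (permutation p = 0.00297, adjusted p = 0.0445), rho = 0.825 (permutation p = 0.00175) and r = 0.74 without m3 and m9. *Hspd1* and *Hspe1* had r = 0.75 (permutation p = 0.00475, adjusted p = 0.0534), rho = 0.643 (permutation p = 0.0274) and r = 0.48 without m2 and m10, so the relation rested in part on these tumors.

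*Hsph1* and *Hsp90aa1* had r = 0.71 (permutation p = 0.00823, adjusted p = 0.0617), rho = 0.734 (permutation p = 0.00885) and r = 0.62 without m9 and m10. The relation of *Hspa1b* and *Dnajb1* rested on m3 and m7: r was 0.73 (permutation p = 0.00722, adjusted p = 0.0617) and rho 0.615 (permutation p = 0.0374), but r was 0.20 without these tumors. *Hspa8* and *Hspb1* had the negative r, -0.69 (permutation p = 0.0149, adjusted p = 0.0958), with rho = -0.636 (permutation p = 0.0307) and r = -0.43 without m3 and m9, and on TPM it did not pass (r = -0.55, adjusted p = 0.154). Of all 45 pairs 30 had a positive r, and the median r was 0.209, with no value for pairs of other genes to set beside it.

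Outside the 10 genes, the closest patterns over the 12 tumors were sought by Pearson's r among 11163 genes with a mean of at least 5 CPM. For *Hspa1b* these were *Map2k1* (r = 0.90), *Yipf4* (r = 0.89) and *Nfe2l2* (r = 0.88). *Hsph1* was closest to *Stk17b*, *Synj2bp* and *Tial1* (r = 0.91 each). The closest to *Hspd1* were *Hspa4* (r = 0.97), a further HSP110, *Rbbp8* (r = 0.97) and *Eif2s1* (r = 0.95). For *Hsf1* they were *Zfp598* (r = 0.95), *Nkx6-1* (r = 0.94) and *Kat2a* (r = 0.91). These r are the highest of many and are given as a description. Without the tumors farthest from each gene's median, r ran from 0.82 to 0.94 for the genes named with *Hsph1*, *Hspd1* and *Hsf1*. With *Hspa1b* it was lower, at 0.78 for *Map2k1*, 0.65 for *Yipf4* and 0.74 for *Nfe2l2*.

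The wider chaperone network was followed in 9 lists with 95 genes, of which 92 were tested. After VCR, 3 were called higher and 1 lower, 4.35% of the 92, beside 5.55% of all tested genes, and edgeR called 0 of them in the other 5 comparisons. An unadjusted p under 0.05 was found for 23 of them under VCR, beside 3892 of all 17602 tested genes, and DESeq2 called 13, beside 2279. Under RCM1-NP FA such a p was found for 12 of them, beside 9.78% of all tested genes. It was found for 7 under the combination (beside 7.31%) and for 15 in the interaction (beside 13.8%). For the combination it was found for 2 against VCR (beside 5.26%) and 1 against RCM1-NP FA (beside 2.07%). DESeq2 called 5 under RCM1-NP FA (beside 277 of all tested genes), 1 under the combination (beside 61) and 5 in the interaction (beside 461). For the combination it called 0 against VCR (beside 11) and 0 against RCM1-NP FA (beside 0). *Hspa4l*, an HSP110, was at 37.3, 37.8 and 35.3 TPM with vehicle, 27.1, 25.2 and 33.8 TPM under VCR, 33.7, 28.6 and 31.6 TPM under RCM1-NP FA, and 33.1, 34.2 and 29.9 TPM under the combination. All 9 treated tumors were below the vehicle tumors. Groups without overlap made up 24.4%, 11.4% and 12.6% of all tested genes for VCR, RCM1-NP FA and the combination against vehicle. *Hspa4l* fell under VCR with a log2 fold change of -0.31 (SE 0.088, edgeR adjusted p = 0.0964), beside -0.20 under RCM1-NP FA (adjusted p = 0.486) and -0.21 under the combination (adjusted p = 0.682). *Grpel1*, the nucleotide exchange factor of the mitochondrial HSP70, was at 29.0, 32.5 and 25.5 TPM with vehicle, at 34.2 TPM in each VCR tumor, at 28.6, 29.7 and 32.9 TPM under RCM1-NP FA, and at 33.8, 33.7 and 33.7 TPM under the combination. The VCR and combination tumors were all above the vehicle tumors, where 24.4% and 12.6% of all tested genes did not overlap. *Grpel1* rose under VCR with a log2 fold change of 0.31 (SE 0.074, edgeR adjusted p = 0.0763). Both calls were lost without single tumors, while with 1 tumor left out the log2 fold change stayed between -0.44 and -0.25 for *Hspa4l* and between 0.27 and 0.35 for *Grpel1*. For *Hspa4l* the adjusted p was 0.153 without m1, 0.183 without m2, 0.130 without m3, 0.262 without m4, 0.359 without m5, 0.103 without m7, 0.111 without m10, 0.133 without m11 and 0.124 without m12. For *Grpel1* it was 0.137 without m1, 0.156 without m2, 0.224 without m4, 0.315 without m5, 0.101 without m10, 0.125 without m11 and 0.104 without m12. Over the other alternatives it ran from 0.0187 to 0.599 for *Hspa4l* and from 0.0109 to 0.601 for *Grpel1*.

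In the list of other HSP70 and HSP110 genes, 8 were tested and 1 was called, *Hspa4l* (1 at an unadjusted p under 0.05, 1 by DESeq2), with a median log2 fold change of -0.11 under VCR, -0.075 under RCM1-NP FA and -0.10 under the combination. *Hspa4*, the most abundant of them with a mean of 133 TPM, had -0.093 under VCR (SE 0.13), and *Hspa13* had -0.31 (SE 0.16, adjusted p = 0.275). Of 14 mitochondrial chaperones and proteases 1 was called, *Grpel1* (2 at an unadjusted p under 0.05, 1 by DESeq2), and the medians were 0.029, -0.036 and -0.016. There *Hspa9*, the mitochondrial HSP70, had a mean of 445 TPM and a log2 fold change of -0.13 under VCR (SE 0.13), and the protease gene *Lonp1* had -0.32, -0.25 and -0.32 under VCR, RCM1-NP FA and the combination (adjusted p = 0.316, 0.691 and 0.720). Of 15 genes of HSP90 and its co-chaperones edgeR called 0 under VCR (6 at an unadjusted p under 0.05, 3 by DESeq2), with medians of 0.060, 0.033 and 0.038. *Hsp90ab1*, the constitutive HSP90, had a mean of 2788 TPM and 0.025 under VCR (SE 0.075), and the glucocorticoid-inducible *Fkbp5* had 0.35 (SE 0.14, adjusted p = 0.189). Beside these counts, edgeR called 5.55% of all 17602 tested genes under VCR, 22.1% had an unadjusted p under 0.05 and DESeq2 called 2279.

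Of 12 J-domain genes edgeR called 0 under VCR (3 at an unadjusted p under 0.05, 1 by DESeq2), with medians of 0.046, 0.089 and 0.063 under VCR, RCM1-NP FA and the combination. *Dnajc8*, with a mean of 129 TPM, had 0.062 under VCR, and *Dnajb5* had 0.81 under VCR (SE 0.37, adjusted p = 0.225) and 0.81 under RCM1-NP FA (SE 0.37, adjusted p = 0.503). Of 9 exchange and binding factors of HSP70 it called 0 (3 at an unadjusted p under 0.05, 1 by DESeq2), with medians of 0.12, 0.055 and -0.029. *St13* had a mean of 211 TPM and -0.13 under VCR, *Hspbp1* had 0.32 under VCR (SE 0.096, with an adjusted p just above the threshold), *Bag3* had 0.20 under RCM1-NP FA and *Bag4* had -0.11 under the combination. Of 14 genes of the cytosolic chaperonin TRiC and of prefoldin it called 0 (2 at an unadjusted p under 0.05, 1 by DESeq2), with medians of 0.011, 0.025 and 0.025. *Cct5* had a mean of 461 TPM and -0.045 under VCR, *Pfdn1* had 0.32 under VCR (SE 0.10, adjusted p = 0.112), *Pfdn2* had 0.14 under RCM1-NP FA and *Pfdn6* had 0.15 under the combination. Beside these counts, 22.1% of all 17602 tested genes had an unadjusted p under 0.05 under VCR, and DESeq2 called 2279.

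Of the family of *Hsf1* and its regulators 4 of 6 genes were tested and 0 called under VCR (0 at an unadjusted p under 0.05, 0 by DESeq2), with medians of 0.22, 0.032 and 0.078. *Hsbp1*, which encodes a protein that binds HSF1, had a mean of 145 TPM and 0.18 under VCR (SE 0.084, adjusted p = 0.242), and *Hsf4* had 0.26 under VCR (SE 0.13, adjusted p = 0.257). *Hsf3* and *Hsf5* had at most 0 and 7 estimated counts in any tumor and were not tested. Of 9 stress genes that heat also induces edgeR called 0 (0 at an unadjusted p under 0.05, 0 by DESeq2), with medians of 0.10, -0.0011 and -0.0013. Among them *Ubb* had a mean of 1335 TPM and 0.094 under VCR (SE 0.10), and *Gadd45b* had 0.28 under VCR and 0.31 under the combination. At an unadjusted p under 0.05, 3892 genes, 22.1% of those tested, passed under VCR, and DESeq2 called 2279.

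Promoters were searched for the heat shock element, the inverted repeat that HSF1 binds. RefSeq windows of GRCm38.p6, from 250 bases before to 50 after the start, were available for 7 of the 10 genes, 10 windows in all, with 2 each for *Hsph1*, *Dnajb1* and *Hspd1*. *Hspa8*, *Hsp90aa1* and *Hsf1* had no entry. An element of 2 units (TTCNNGAA or GAANNTTC) was found in 15.1% of all 32851 windows, and 1 of 3 units (GAANNTTCNNGAA or TTCNNGAANNTTC) in 0.603%; units of neighbouring matches may overlap. *Hspa1a*, *Hspa1b*, *Hspb1*, *Hsph1*, *Hspd1* and *Hspe1* held the element of 2 units in at least 1 window, and *Hsph1*, *Hspd1* and *Hspe1* also that of 3. For *Hspd1* both were in only 1 of its 2 windows, and neither window of *Dnajb1* held an element. The match of 3 units lay after the start in both windows of *Hsph1*, and before it for *Hspd1* and *Hspe1*. The box CCAAT, on either strand, was in 37.4% of all windows and in those of *Hspa1a*, *Hspa1b* and *Hsph1*. It was in 1 of 2 windows of *Dnajb1* and in 1 of 2 of *Hspd1*, the window without heat shock elements. TATAAA, on either strand, was in 13.6% of all windows and in none of the 10 windows of these genes.

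Stretches of 80 bases are shown for the pair *Hspa1a* and *Hspa1b*, for *Hspb1*, which was called higher under VCR, and for the shared promoter of the chaperonin. Each stretch is written 5′ to 3′ on the strand of its gene, with heat shock elements in capitals. The windows of *Hspa1a* and *Hspa1b* were identical at 296 of 300 bases, and the stretch of *Hspa1b* shown, at chr17:34959299-34959378 on the minus strand, was the same in *Hspa1a* at chr17:34972217-34972296 on the minus strand. The stretch of *Hspb1* lies at chr5:135887766-135887845 on the plus strand. The stretches of *Hspe1* (chr1:55088026-55088105, plus strand) and *Hspd1* (chr1:55088030-55088109, minus strand) are nearly the same DNA read from both sides, and 1 run of units between 55088059 and 55088076 serves as the match of both genes. A match is a description of the letters, and binding of HSF1 was not measured.
Hspa1b and Hspa1a: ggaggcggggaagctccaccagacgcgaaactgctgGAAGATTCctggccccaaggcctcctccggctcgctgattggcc
Hspb1: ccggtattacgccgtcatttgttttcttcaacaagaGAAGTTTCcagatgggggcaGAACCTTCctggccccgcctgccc
Hspe1: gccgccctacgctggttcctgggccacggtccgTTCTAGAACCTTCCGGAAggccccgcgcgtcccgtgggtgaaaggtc
Hspd1: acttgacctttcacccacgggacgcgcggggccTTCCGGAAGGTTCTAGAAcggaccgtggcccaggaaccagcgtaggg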

How the data were processed

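For each transcript of GRCm38 the authors deposited an estimated count from kallisto (not normalized and not whole) and a TPM value; the versions of kallisto and DESeq2 used by the study are not given in the sources used here. Estimated counts and TPM were summed over the RefSeq transcripts of each gene, and the counts were rounded. Genes were kept by filterByExpr of edgeR 4.0.16 (minimum count 10), scaled by TMM, and compared by its quasi-likelihood F test in 1 fit of 4 groups (R 4.3.3), with Benjamini-Hochberg adjustment in each comparison and a threshold of 0.1. Exact permutation tests and correlations used log2 CPM (counts scaled to library size) with 0.1 added, and correlations two-sided tests with 100000 permutations. DESeq2 1.42.0 and limma 3.58.1 were alternatives. The pipeline was tested on simulated data.

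The genes and the lists (9 of chaperones and 10 of cell types and handling) were chosen with earlier results of these data known. The genes named from each chaperone list were taken from its most abundant gene, the genes called against vehicle and the gene with the largest absolute log2 fold change in each comparison with vehicle among those with a mean of at least 5 TPM. The correlation with muscle fibre RNA, the term for it and leaving out m5 and m9 were chosen after seeing the data. Promoters are from RefSeq (GRCm38.p6) and transcript sequences of *Hspa1a* and *Hspa1b* from GENCODE vM21. Python 3.11.15, numpy 2.4.6, pandas 2.3.3 and matplotlib 3.10.9 were used.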

Additional observations from a re-analysis of the deposited data

How the results depend on the processing

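No paired analysis was possible because the tumors m1 to m12 came from different mice and no label links a tumor of 1 group to a tumor of another. Of the log2 fold changes of the 10 genes under alternatives other than leaving out 1 tumor, 590 kept their direction and their side of the threshold, 40 turned direction, 3 passed the threshold anew and 5 no longer passed it. With 1 tumor left out, 648 kept both, 63 turned direction, 1 passed anew and 8 no longer passed. Mean TPM without the muscle fibre genes moved by less than the spread between tumors for all 40 group means. Of the 45 correlations, 33 kept both on TPM, 8 passed the threshold anew, 1 (*Hspa8* and *Hspb1*) no longer passed and 3 turned. With 3 tumors in each group the exact permutation test cannot go below p = 0.1, and *Hspb1* had only 34 to 64 estimated counts in the vehicle tumors. The causes of the changes below were not tested.

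The 977 genes called under VCR became 599 without a filter on counts, 465 with only the groups compared, 2279 with DESeq2 and 9 at a threshold of 0.05. They became 253 with m5 and m9 left out and 1 with the term for fibre RNA, both alternatives chosen after seeing the data, and 0 to 2001 with 1 tumor left out. DESeq2 called 277 genes under RCM1-NP FA, 61 under the combination, 11 for the combination against VCR and 461 in the interaction. With m5 and m9 left out, 138 genes were called under the combination. With 1 tumor left out, 0 to 8 genes were called under RCM1-NP FA (8 without m3), 0 to 44 under the combination (44 without m9) and 0 to 1 in the interaction (1 without m7). Of the 10 heat shock genes, 0 were called under VCR with limma-voom, offsets for transcript length, robust empirical Bayes, a threshold of 0.05 or the fibre term, and 0 to 1 with 1 tumor left out. DESeq2 called 1 of the 10 under RCM1-NP FA and 1 in the interaction. Under the combination 1 was called with m5 and m9 left out, and 0 to 1 with 1 tumor left out.

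The log2 fold change of *Hspe1* under VCR, 0.0083, became -0.0070 with DESeq2's size factors, -0.0027 with no filter on counts, -0.010 with only the groups compared, -0.017 with offsets for transcript length and -0.0070 with the DESeq2 Wald test. That of *Hsf1* under VCR became 0.013 with the offsets. With limma-voom, the combination against RCM1-NP FA gave 0.083 for *Hspa1a* and 0.10 for *Hspb1*. With m5 and m9 left out, the log2 values that turned were 0.019 for *Hsph1* and 0.027 for *Hsf1* under VCR against vehicle. Under RCM1-NP FA against vehicle they were 0.0036 for *Hspe1*. For the combination against VCR they were -0.14 for *Hspa1b* and -0.017 for *Hspa8*. For the combination against RCM1-NP FA they were 1.75 for *Hspb1*, 0.087 for *Hsph1* and 0.018 for *Hsp90aa1*. In the interaction they were -0.0035 for *Hspa8* and -0.082 for *Dnajb1*. With the fibre term they were 0.052 for *Hspa1b*, 0.044 for *Hspa8*, 0.20 for *Dnajb1* and 0.11 for *Hsf1* under VCR against vehicle. Under RCM1-NP FA against vehicle they were 0.011 for *Hspa1b*, 0.019 for *Hspa8*, 0.029 for *Dnajb1*, 0.022 for *Hspe1* and 0.031 for *Hsf1*. Under the combination against vehicle they were 0.031 for *Hspa8*, -0.22 for *Hspb1*, -0.031 for *Hsph1*, 0.042 for *Dnajb1*, -0.047 for *Hspd1* and 0.014 for *Hsf1*. For the combination against VCR they were -0.11 for *Hspa1b* and -0.014 for *Hspa8*. For the combination against RCM1-NP FA they were 0.012 for *Hspa8* and 0.013 for *Dnajb1*. In the interaction they were -0.12 for *Hspa1b*, -0.033 for *Hspa8* and -0.18 for *Dnajb1*. On TPM, r became 0.0021 for *Hspa1a* and *Hspe1*, -0.092 for *Hspb1* and *Hspe1*, and 0.071 for *Hsph1* and *Dnajb1*.

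With 1 tumor left out, the log2 fold changes that took both signs ran from -0.21 to 0.047 for *Hsph1*, -0.14 to 0.085 for *Dnajb1*, -0.19 to 0.073 for *Hspd1*, -0.095 to 0.11 for *Hspe1* and -0.12 to 0.055 for *Hsf1* under VCR against vehicle. Under RCM1-NP FA against vehicle the range was -0.13 to 0.11 for *Hsp90aa1*, -0.24 to 0.018 for *Dnajb1*, -0.13 to 0.14 for *Hspd1*, -0.11 to 0.097 for *Hspe1* and -0.15 to 0.023 for *Hsf1*. Under the combination against vehicle the range was -0.22 to 0.28 for *Hsph1*, -0.16 to 0.11 for *Hsp90aa1*, -0.073 to 0.19 for *Hspd1* and -0.16 to 0.051 for *Hspe1*. For the combination against VCR the range was -0.016 to 1.30 for *Hspa1a*, -0.14 to 0.59 for *Hspa1b*, -0.017 to 0.043 for *Hspa8*, -0.095 to 0.38 for *Hsph1* and -0.13 to 0.0039 for *Hsf1*. For the combination against RCM1-NP FA the range was -1.10 to 0.90 for *Hspa1a*, -0.67 to 0.63 for *Hspa1b*, -0.058 to 0.016 for *Hspa8*, -1.73 to 1.75 for *Hspb1*, -0.33 to 0.15 for *Hsph1*, -0.10 to 0.096 for *Hsp90aa1*, -0.14 to 0.097 for *Dnajb1*, -0.032 to 0.15 for *Hspd1*, -0.11 to 0.014 for *Hspe1* and -0.099 to 0.019 for *Hsf1*. In the interaction the range was -0.21 to 0.25 for *Hsph1*, -0.12 to 0.14 for *Dnajb1*, -0.022 to 0.24 for *Hspd1*, -0.15 to 0.053 for *Hspe1* and -0.093 to 0.080 for *Hsf1*. Among values that kept their sign, the range was 0.048 to 0.24 for *Hsp90aa1*, 0.038 to 0.21 for *Hspd1* and -0.12 to -0.018 for *Hspe1* for the combination against VCR, and 0.028 to 0.28 for *Hsp90aa1* and 0.024 to 0.11 for *Hspa8* in the interaction.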

Other observations

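Other cell types were followed by their marker genes, as the summed TPM of each list in each tumor. Macrophage and monocyte genes were abundant, from 3174 TPM (m2) to 4579 TPM (m8), led by *Lyz2* with a mean of 1964 TPM, and edgeR called 0 of them under VCR (2 at an unadjusted p under 0.05, 1 by DESeq2). Fibroblast genes ran from 722 TPM (m2) to 1222 TPM (m7), led by *Col3a1*, and 2 of 5 tested were called higher under VCR (2 at an unadjusted p under 0.05, 2 by DESeq2). Endothelial genes ran from 64.2 TPM (m2) to 111 TPM (m5), led by *Cdh5*, and 1 of 7 tested was called higher under VCR, where 6 had an unadjusted p under 0.05 and DESeq2 called 5. Lymphocyte genes ran from 5.64 TPM (m3) to 37.0 TPM (m1), adipocyte genes from 18.7 TPM (m3) to 224 TPM (m2), keratinocyte genes from 3.31 TPM (m9) to 4.69 TPM (m10) and erythroid genes from 23.9 TPM (m6) to 1416 TPM (m4), with 0 called under VCR in each (0 also by DESeq2 and at an unadjusted p under 0.05). The mean erythroid sum was 699 TPM with vehicle, 494 TPM under VCR, 692 TPM under RCM1-NP FA and 46.7 TPM under the combination, and vehicle tumor m3 (40.9 TPM) and VCR tumors m5 and m6 were below the highest combination tumor, m12 (67.6 TPM). Of the 5 erythroid genes edgeR and DESeq2 each called 0 in the 3 comparisons of the combination, where 5 against vehicle, 4 against VCR and 5 against RCM1-NP FA had an unadjusted p under 0.05, beside 7.31%, 5.26% and 2.07% of all tested genes. The rhabdomyosarcoma and myoblast list ran from 131 TPM (m1) to 465 TPM (m9), and 3 of its 9 tested genes were called higher under VCR (7 at an unadjusted p under 0.05, 5 by DESeq2). Among these genes *Des*, desmin, which muscle fibres also express, was at 5.77, 4.45 and 5.88 TPM with vehicle and at 104, 217 and 74.9 TPM under VCR. Immediate early genes, which also respond to handling of tissue, ran from 386 TPM (m8) to 695 TPM (m1), and 1 of 9 tested was called higher under VCR (3 at an unadjusted p under 0.05, 3 by DESeq2). Over all 10 lists, edgeR called 0 genes under RCM1-NP FA and 0 under the combination against vehicle. There 29 and 29 had an unadjusted p under 0.05, and DESeq2 called 14 and 6. Muscle fibre genes made up 15 and 14 of the former and 12 and 4 of the latter. DESeq2 called 2279, 277 and 61 of all 17602 tested genes under VCR, RCM1-NP FA and the combination. Of all tested genes 5.55% were called under VCR, and an unadjusted p under 0.05 was found for 22.1% under VCR, 9.78% under RCM1-NP FA and 7.31% under the combination. The calls under VCR were all lost without m2, m4 or m5, when edgeR called 0 genes in that comparison.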
